A study of Mus musculus with 24 samples.

Results

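Solute carrier (Slc) transporter genes were taken as every MspI fragment whose annotated gene name began with Slc and a digit, with Slc25a12, Slc25a24, Slc25a25 and Slc25a31 left out, which gave 1288 of 65535 fragments at 62 genes. Reduced representation bisulfite sequencing (RRBS) was performed on brown adipose tissue (BAT) of female C57BL/6J mice at PND 12. Their dams had been gavaged with a DDT mixture or with olive oil (VEH) from mid-gestation to the first days after birth. Each of the 12 DDT and 12 VEH libraries was made from the pooled BAT of female littermates, so litters and not pups were the replicates, and the labels name no other treatment or allele. The fragments lay on chromosomes 1 and 2 and on chromosome 3 up to position 136670346, and the rest of the genome was not analysed here. BAT is a mixture of cells, and a change in the cells present cannot be told apart from a change of methylation within 1 cell type.

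Solute carriers are membrane proteins that move sugars, amino acids, organic acids, vitamins, ions, metals and nucleotide sugars across the plasma membrane or into organelles, mostly as facilitated carriers, exchangers or cotransporters. Brown fat draws on them for its fuel, since it takes up glucose, fatty acids, lactate and branched-chain amino acids to feed mitochondrial heat production. Cytosine methylation in mammals sits mostly at CpG dinucleotides. CpG-rich gene starts are usually free of it, whereas most other CpGs carry it.

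RRBS cuts DNA with MspI at CCGG, and a fragment's methylation level was the percentage of its CpG calls that were methylated. Levels resting on fewer than 10 calls were dropped, and fragments entered the comparison when 8 or more VEH and 8 or more DDT litters had a level. By that rule 380 of the 1288 Slc fragments (29.5%) at 58 genes were tested, against 30.9% of the whole table, and 328 Slc fragments had no calls. The untested genes were Slc23a3, Slc39a1, Slc5a12 and Slc9a4. Depth at the median Slc fragment ranged from 173.5 to 295 calls over the VEH litters and from 214 to 279 over the DDT litters. A tested fragment was assigned to a promoter when it overlapped the window from 1000 bp before to 500 bp after a start of its gene, and otherwise to the gene body or to the region upstream, which gave 192, 125 and 63 fragments. Of the 63 upstream fragments, 61 lay over 5 kb and 27 over 100 kb from the start, 10 lay inside other protein-coding genes and 6 in other promoters, so the Slc name at an upstream fragment is the authors' assignment and not always that of the closest gene.

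The sequences of a few fragments show what was read, on the plus strand of GRCm38 with each CpG in capitals. The first pair, from the phosphate cotransporter gene Slc20a1, sets a fragment 353 bp before the start at 1.77% methylation in VEH beside one of similar length 8475 bp inside the gene at 98.4%.
Slc20a1 promoter, chr2:129198384-129198438: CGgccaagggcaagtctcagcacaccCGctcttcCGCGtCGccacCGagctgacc
Slc20a1 body, chr2:129207756-129207813: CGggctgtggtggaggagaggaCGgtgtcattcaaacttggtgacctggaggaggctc

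The next pairs are neighbouring fragments that meet at a single MspI site, far upstream of the zinc transporter gene Slc30a4 and inside the vitamin C transporter gene Slc23a2. The Slc30a4 fragments had levels of 22.96% and 98.3% in VEH, and the Slc23a2 fragments 93.8% and 17.6%.
Slc30a4 upstream, left, chr2:122816543-122816591: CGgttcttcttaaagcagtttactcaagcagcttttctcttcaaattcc
Slc30a4 upstream, right, chr2:122816592-122816761: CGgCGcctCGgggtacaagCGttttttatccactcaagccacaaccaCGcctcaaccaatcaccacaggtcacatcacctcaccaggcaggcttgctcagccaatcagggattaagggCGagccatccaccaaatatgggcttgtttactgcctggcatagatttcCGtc
Slc23a2 body, left, chr2:132073586-132073618: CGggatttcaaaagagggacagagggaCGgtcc
Slc23a2 body, right, chr2:132073619-132073711: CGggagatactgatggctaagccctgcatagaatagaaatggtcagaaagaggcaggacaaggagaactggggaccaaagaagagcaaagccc

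The last fragments are those at which the group comparison or a single library is described further on.
Slc9a8 promoter, chr2:167421527-167421562: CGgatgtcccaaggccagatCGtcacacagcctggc
Slc7a11 upstream, chr3:50640093-50640160: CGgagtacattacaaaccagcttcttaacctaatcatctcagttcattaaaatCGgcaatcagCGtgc
Slc39a12 upstream, chr2:14383468-14383504: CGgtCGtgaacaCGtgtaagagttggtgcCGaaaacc
Slc2a6 body, left, chr2:27025927-27025980: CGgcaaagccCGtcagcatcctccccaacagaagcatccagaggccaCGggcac
Slc2a6 body, right, chr2:27025981-27026039: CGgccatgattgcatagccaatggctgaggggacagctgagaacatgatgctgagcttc

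The 250 bases before the RefSeq start (build GRCm38.p6, read 5′ to 3′ on the gene's strand) differ as widely between members. Slc30a4, which had the least methylated promoter of the family, has 40 CpGs there, and Slc2a2, the glucose transporter of liver and pancreatic beta cells, has 2 and had no tested promoter fragment.
Slc30a4 5′ flank, chr2:122702664-122702913: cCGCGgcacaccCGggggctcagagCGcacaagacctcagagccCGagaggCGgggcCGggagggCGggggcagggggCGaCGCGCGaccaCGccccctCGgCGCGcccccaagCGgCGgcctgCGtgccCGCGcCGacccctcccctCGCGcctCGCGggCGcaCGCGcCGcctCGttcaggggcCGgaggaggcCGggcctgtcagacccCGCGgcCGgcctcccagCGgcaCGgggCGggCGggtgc
Slc2a2 5′ flank, chr3:28697653-28697902: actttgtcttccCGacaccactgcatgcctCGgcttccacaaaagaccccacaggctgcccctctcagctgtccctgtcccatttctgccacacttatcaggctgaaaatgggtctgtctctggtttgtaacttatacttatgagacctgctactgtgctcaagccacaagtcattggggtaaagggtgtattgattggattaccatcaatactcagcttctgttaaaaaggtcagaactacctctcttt
RefSeq flanks were matched for 50 of the 58 tested genes. The median was 15 CpGs in the 35 genes with a tested promoter and 4 in the 15 genes without one, against 6 over the 27025 genes of the RefSeq table. At least 10 CpGs were found in 28 of those 35 genes, in 4 of those 15 and in 38.2% of all genes. Every MspI site holds a CpG, so promoters poor in CpGs give few fragments to test. These contrasts are therefore partly set by the method and are no finding about the family.

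The Slc genes were sparsely methylated at their starts and ranged over the whole scale elsewhere. In VEH litters the 192 promoter fragments had a median level of 4.50%, from 0.415% to 31.4%, and none reached 50%, against 2.01% of the 7028 promoter fragments of all genes. The 125 gene body fragments had a median of 54.4%, with 37 (29.6%) under 10% and 64 at 50% or more (51.2%), and the 63 upstream fragments a median of 83.5%, with 39 at 50% or more (61.9%). Over all genes the medians were 41.6% in bodies and 43.2% upstream, with 47.6% and 48.1% of fragments at 50% or more. All 63 Slc upstream fragments lay outside islands, where the upstream fragments of all genes had a median of 67.3%, with 58.9% at 50% or more. Within CpG island cores, as annotated by the authors, the 146 Slc fragments had a median of 3.58% and none reached 50% (0.984% over all genes). Outside islands 100 of 215 did (46.5%, against 50.5% over all genes). The 50 promoter fragments outside islands were also low, with a median of 5.92% and a highest value of 25.4%. The level fell with the number of CpGs per 100 bp, with a Spearman rho of -0.70 over the 380 Slc fragments and -0.68 over all 20225 tested fragments, given as a description because the fragments share libraries.

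**Figure D1:**
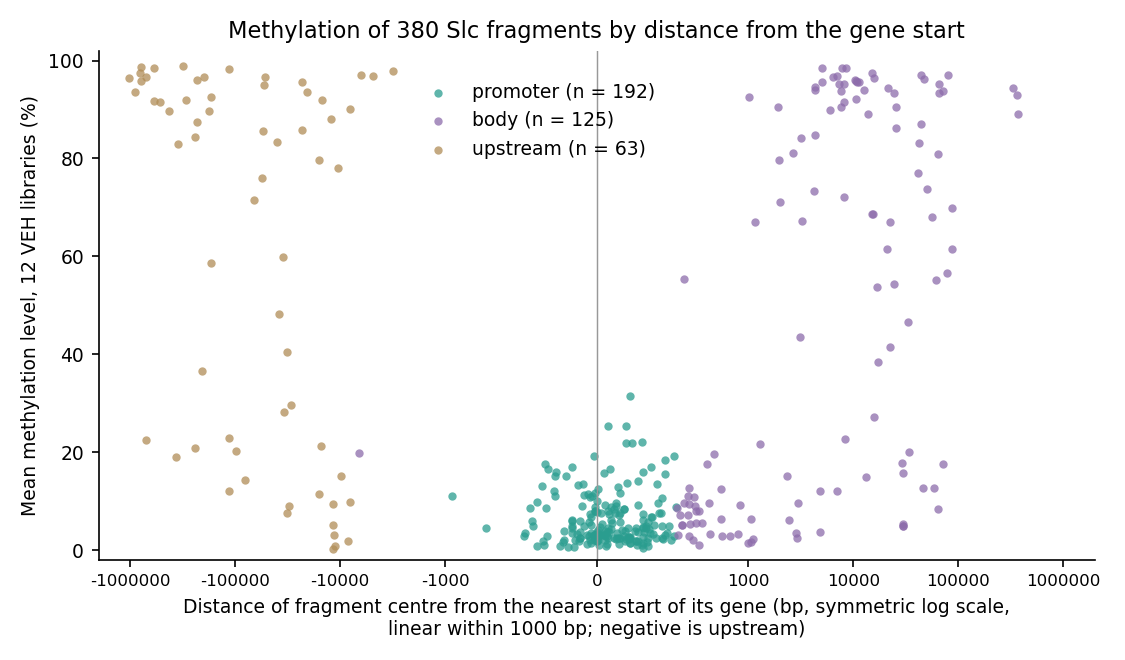
Mean methylation level of each of the 380 tested Slc fragments over the 12 VEH libraries (vertical axis, %) against the distance of its centre from the nearest start of its gene (horizontal axis, bp, logarithmic beyond 1000 bp on each side). Points are fragments, coloured as promoter, body or upstream, and the highest promoter point is at 31.4%.

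Away from promoters and island cores the level differed between fragment lengths, in no single direction. Slc fragments of any CpG number had a median VEH level of 46.6% under 50 bp (71 fragments), 87.4% at 50 to 100 bp (89 fragments) and 14.5% over 100 bp (14 fragments), and all genes had 50.9%, 82.9% and 35.8%. Among the Slc fragments of these regions with a single CpG, which is the one at the MspI site, 31 of under 50 bp had a median VEH level of 21.3% 13 of 50 to 100 bp a median of 90.6% and 2 of over 100 bp a median of 9.71%. Over all genes the 3 groups held 1783, 645 and 76 fragments, with medians of 39.6%, 92.9% and 75.6%. In promoters the Slc medians were 3.52% for 71 fragments of under 50 bp and 5.02% for the other 121. Reads of these libraries had 50 bases, so a shorter fragment was read to its end, where the MspI overhang had been filled in during end repair, and the part of this step in the levels was not tested. Among the 146 pairs of touching Slc fragments, 14 differed by over 30 percentage points, and 13 of these 14 had a member of under 50 bp, against 99 of all 146. In 15 touching pairs the left fragment lay outside promoters and neither member was under 50 bp, and these pairs differed by at most 14.6 points. The shorter member was not always the lower: among the 10 pairs that differed by over 30 points and had a single member of under 50 bp, that member was lower in 5 and higher in 5. In the pairs printed above, the 49-bp Slc30a4 fragment was the lower and the 33-bp Slc23a2 fragment the higher.

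**Figure D2:**
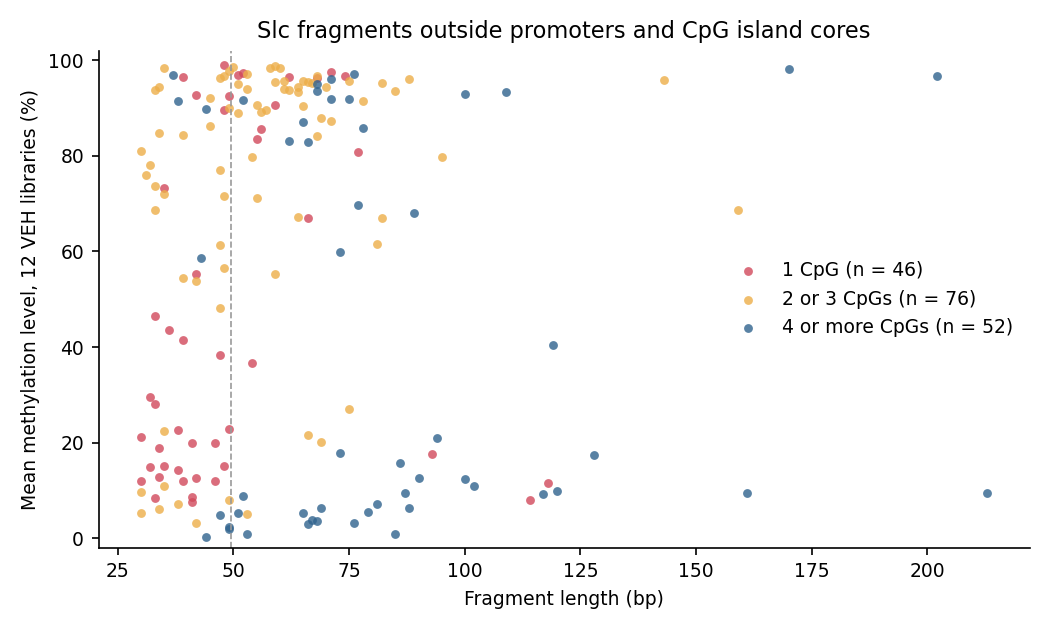
Mean VEH methylation level (vertical axis, %) against fragment length (horizontal axis, bp) for the 174 tested Slc fragments outside promoters and CpG island cores, coloured by the number of CpGs. The dashed line stands at 50 bp, and fragments with 1 CpG have a median of 21.3% to its left and of 90.6% between it and 100 bp.

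Some libraries stood apart before any group was compared. DDT replicate 4 had a level at 228 of the 380 Slc fragments, where the VEH libraries had 356 to 379, although its total of 12788050 calls was within the range of 8371958 to 13768991 in VEH. At 12.3% of its Slc fragments it lay over 20 percentage points from the median of the other libraries, and DDT replicate 12 did so at 8.02%, against 0.528% to 2.46% in VEH and 0.263% to 5.78% in the other 10 DDT libraries. DDT replicate 4 was the library farthest from the others at 122 Slc fragments. In Slc2a6, a hexose transporter gene, the pair of touching body fragments printed above had VEH levels of 75.4% to 84.5% and of 69.7% to 96.6%. DDT replicate 4 was at 0% with 713 calls and at 0.305% with 328 calls there, and DDT replicate 12 at 58.6% and 50%. The DDT minus VEH differences of -9.06 and -12.0 points were -0.778 and -1.30 points without both libraries. At Slc23a2 the right-hand body fragment printed above ran the other way, with 97.1% and 84.9% in DDT replicates 4 and 12 and 11.4% to 24.6% in VEH. PCR reads without molecular identifiers are not independent molecules, so counts of calls overstate the precision, and bisulfite does not separate methylated from hydroxymethylated cytosine.

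**Figure D3:**
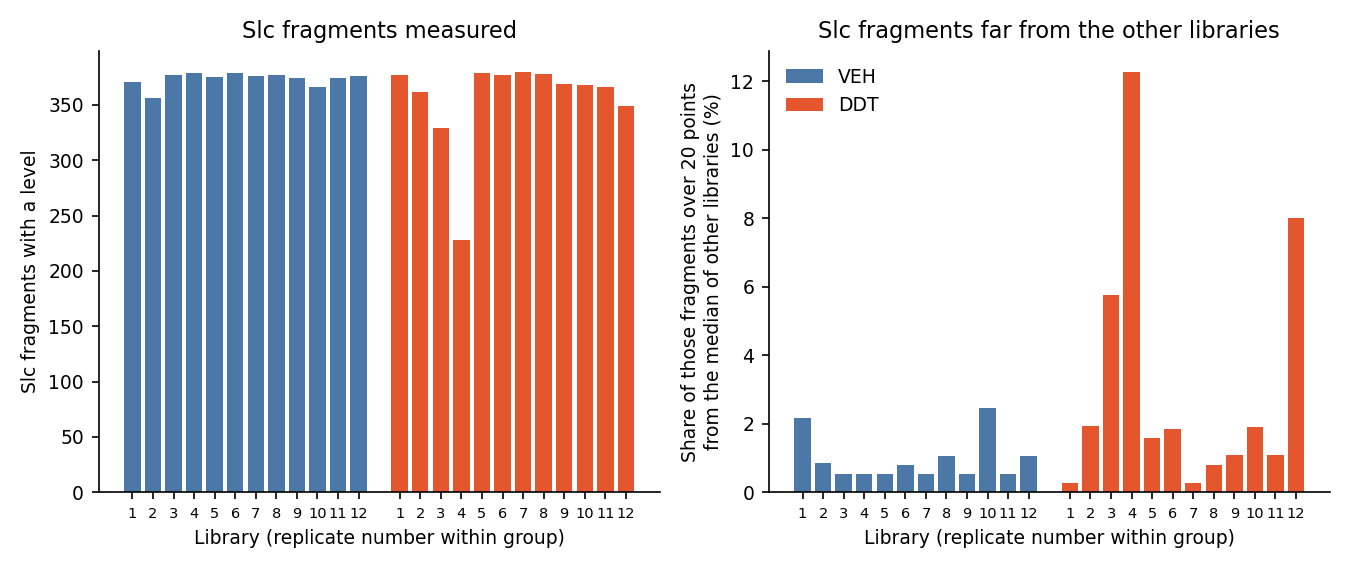
Left, number of the 380 tested Slc fragments with a level in each library (bars, VEH and DDT replicates 1 to 12), lowest at 228 in DDT replicate 4. Right, share of those fragments (%) at which the library lay over 20 percentage points from the median of the other libraries, highest at 12.3% in DDT replicate 4 and 8.02% in DDT replicate 12.

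DDT exposure was compared with VEH by an ANOVA F test at each of the 20225 tested fragments, with Benjamini-Hochberg adjustment over all of them. No Slc fragment differed at an adjusted p under 0.05 (0 of 380, background 0%), the lowest adjusted value being 0.869. Without adjustment 18 Slc fragments (4.74%) had a p under 0.05, against a background of 4.18% of all tested fragments. Of these, 5 were higher in DDT (1.32%, background 1.25%) and 13 were lower (3.42%, background 2.93%). The median DDT minus VEH difference was -0.213 percentage points over the Slc fragments and -0.163 over all fragments, with 160 Slc differences above 0 and 220 below. The median 95% confidence interval of a Slc fragment reached 2.99 points to each side. Without DDT replicates 4 and 12, the median difference was -0.0373 points (0.0183 over all fragments), and 14 Slc fragments (3.85%, against 4.51% of all fragments) had an unadjusted p under 0.05, 7 in each direction. The other membrane transport genes of the table were organic anion transporters, ABC transporters, aquaporins and P-type ATPases. With all libraries they had 5 of 121 fragments (4.13%, background 4.18%) at that p and none adjusted.

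The 10 Slc fragments with the smallest unadjusted p are described as the nearest to a difference, since none passed the adjustment. The smallest p belonged to an intronic fragment of Slc12a5, the neuronal potassium chloride cotransporter KCC2, at chr2:164997688-164997752 and 29481 bp from the nearest start. Its VEH levels ran from 3.24% to 8.28% with a median of 5.09%, and its DDT levels from 0.847% to 5.17% with a median of 3.55%. The groups overlapped, although 11 of 12 DDT libraries lay below the VEH median. The difference was -1.82 points (95% confidence interval -2.84 to -0.799), with an unadjusted ANOVA p of 0.00125, an adjusted p of 0.869 and a two-sided permutation p of 0.00066. Next came a promoter fragment of Slc9a8, a sodium proton exchanger of the Golgi and endosomes, in a CpG island 167 bp before the start. VEH ran from 1.94% to 6.70% with a median of 4.72%, and DDT from 0% to 4.62% with a median of 3.61%. All 12 DDT libraries lay below the VEH median, and DDT replicates 4 and 12 were at 0%. The difference was -1.73 points (unadjusted p 0.00593, adjusted p 0.869) and -1.11 points without that pair of libraries.

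The third and the fourth were almost fully methylated and higher in DDT. At Slc7a11, which encodes the cystine glutamate exchanger that supplies cystine for glutathione, the fragment lay 196512 bp upstream. VEH ran from 95.3% to 98.5% with a median of 96.5%, and DDT from 96.3% to 99.2% with a median of 98.2% in 11 libraries. The groups overlapped, with 9 of 11 DDT libraries above the VEH median, and the difference was 1.23 points (95% confidence interval 0.316 to 2.15, unadjusted p 0.0108). A Slc7a11 exon fragment 65921 bp inside the gene, at chr3:50377657-50377723, was also higher in DDT by 1.24 points (unadjusted p 0.0333), with 11 of 12 DDT libraries above the VEH median. The third tested Slc7a11 fragment had means of 93.3% in VEH and 95.9% in DDT (unadjusted p 0.298). At Slc39a12, a zinc importer gene, the fragment lay 4830 bp upstream. VEH ran from 93.5% to 100% with a median of 97.0%, and DDT from 95.8% to 100% with a median of 98.99% in 10 libraries, since DDT replicates 4 and 12 had no level. The difference was 1.82 points (unadjusted p 0.0137), 9 of 10 DDT libraries lay above the VEH median, and the groups overlapped.

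The other 6 had lower means in DDT, and in 4 of them DDT replicate 4 was the lowest library. At Slc35f5, a member of the nucleotide sugar transporter family, a fragment 242815 bp upstream ran from 16.3% to 25.2% with a median of 19.8% in VEH and from 2.63% to 20.95% with a median of 17.99% in DDT (unadjusted p 0.0187). At Slc9a2, an epithelial sodium proton exchanger, a promoter island fragment ran from 6.45% to 22.1% with a median of 16.9% in VEH and from 0% to 20.1% with a median of 12.6% in DDT (unadjusted p 0.0211). Its difference of -4.91 points was -3.25 points without DDT replicates 4 and 12, where the unadjusted p was 0.0733. At Slc4a11, a bicarbonate transporter family member known from the corneal endothelium, an intronic island fragment ran from 2.83% to 7.47% with a median of 5.02% in VEH and from 0.0317% to 6.10% with a median of 3.61% in DDT (unadjusted p 0.0311). DDT replicate 4 had 3156 calls there. At the zinc importer gene Slc39a10, an exonic island fragment 400 bp after the start ran from 10.1% to 16.3% with a median of 14.2% in VEH and from 0% to 15.2% with a median of 11.4% in DDT (unadjusted p 0.0322). Its difference of -3.25 points was -1.50 points without both libraries. All 4 pairs of groups overlapped.

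The remaining fragments had no level in DDT replicate 4. At Slc39a8, an importer of zinc and manganese, a fragment across an exon boundary ran from 5.98% to 12.0% with a median of 9.67% in VEH and from 2.73% to 14.9% with a median of 5.69% in DDT (unadjusted p 0.0245). At Slc7a14, a lysosomal member of the cationic amino acid transporters, a fragment 231345 bp upstream ran from 83.0% to 94.5% with a median of 86.9% in VEH and from 81.3% to 87.0% with a median of 85.1% in DDT (unadjusted p 0.0269). The groups overlapped at both. Every one of these 10 fragments had an adjusted p of 0.869. Over the Slc fragments, the median ratio of the VEH SD to the SD that counting of calls alone gives was 1.35.

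**Figure D4:**
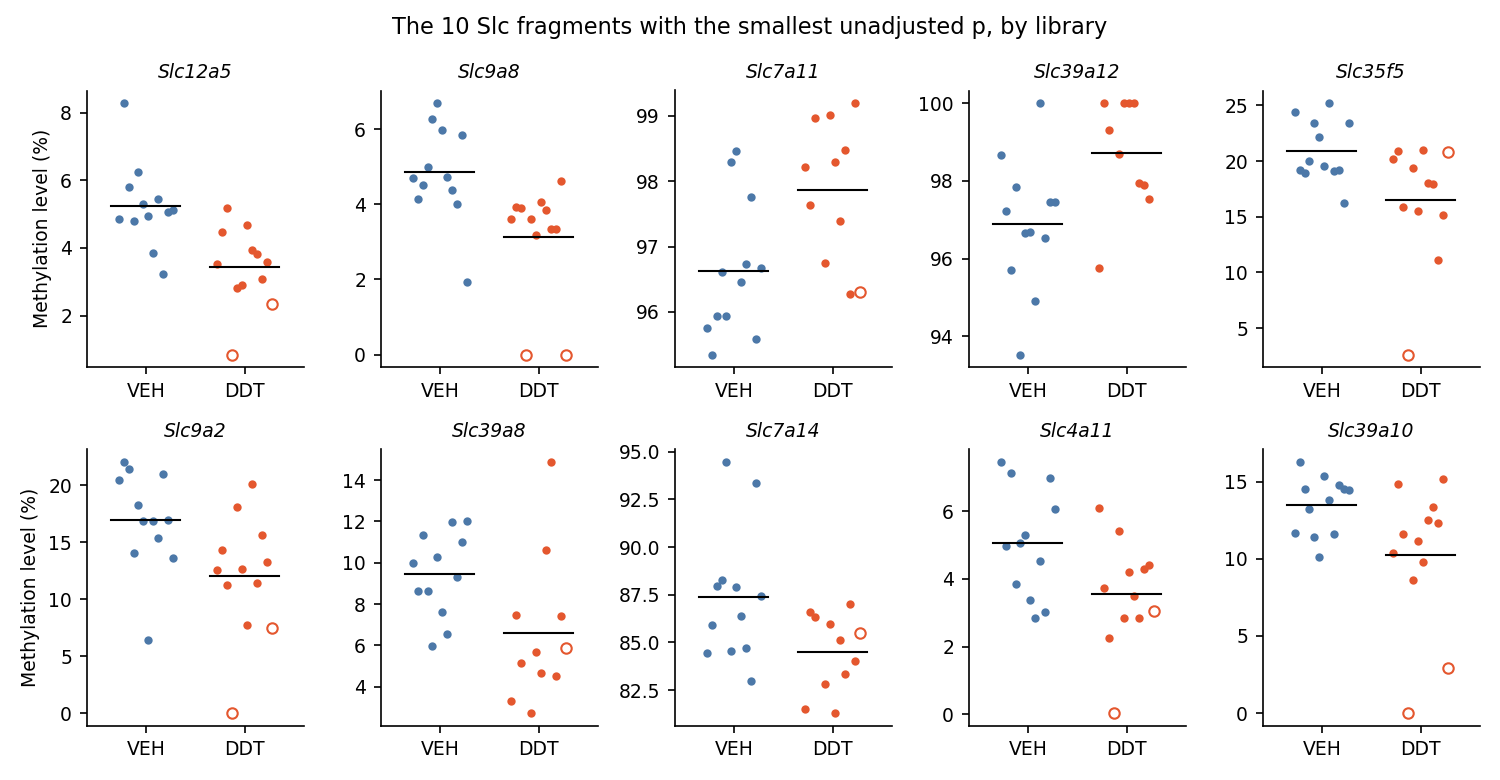
Methylation level (vertical axes, %, each with its own range) in every VEH and DDT library (points) with the group mean (line) at the 10 Slc fragments with the smallest unadjusted p, in order of p. Open points are DDT replicates 4 and 12, and the DDT and VEH points overlap in every panel.

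Calls were also summed over the promoter, the body and the upstream fragments of each gene, which gave 110 tested Slc zones, 40 of them promoters. The sums also took in fragments not tested singly, so a zone level moves with how the calls divide among its fragments. The Slc4a11 body zone summed 8 fragments, and its 2 tested fragments had 5.05% and 5.38% in VEH. The part of this division in the zone differences was not tested. No Slc zone differed at an adjusted p under 0.05 (background 0%, smallest adjusted p 0.768), and 5 did at an unadjusted p under 0.05 (4.55%, background 4.35%). These were the bodies of Slc4a11, with means of 9.79% in VEH and 6.52% in DDT (p 0.00459), Slc7a11, with 95.1% and 96.5% (p 0.0187), and Slc39a8, with 40.6% and 33.05% (p 0.0401), and the upstream zones of Slc7a11, with 96.1% and 97.7% (p 0.00850), and of the riboflavin transporter gene Slc52a3, with 28.01% and 20.7% (p 0.0323). Of the 40 promoters 0 had an unadjusted p under 0.05, the smallest being 0.0519 for Slc39a10. Over all genes 55 of 1650 promoters (3.33%) did, and the 2 shares were not tested against each other. The widest promoter interval reached 6.86 points to each side and the median one 1.10.

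**Figure D5:**
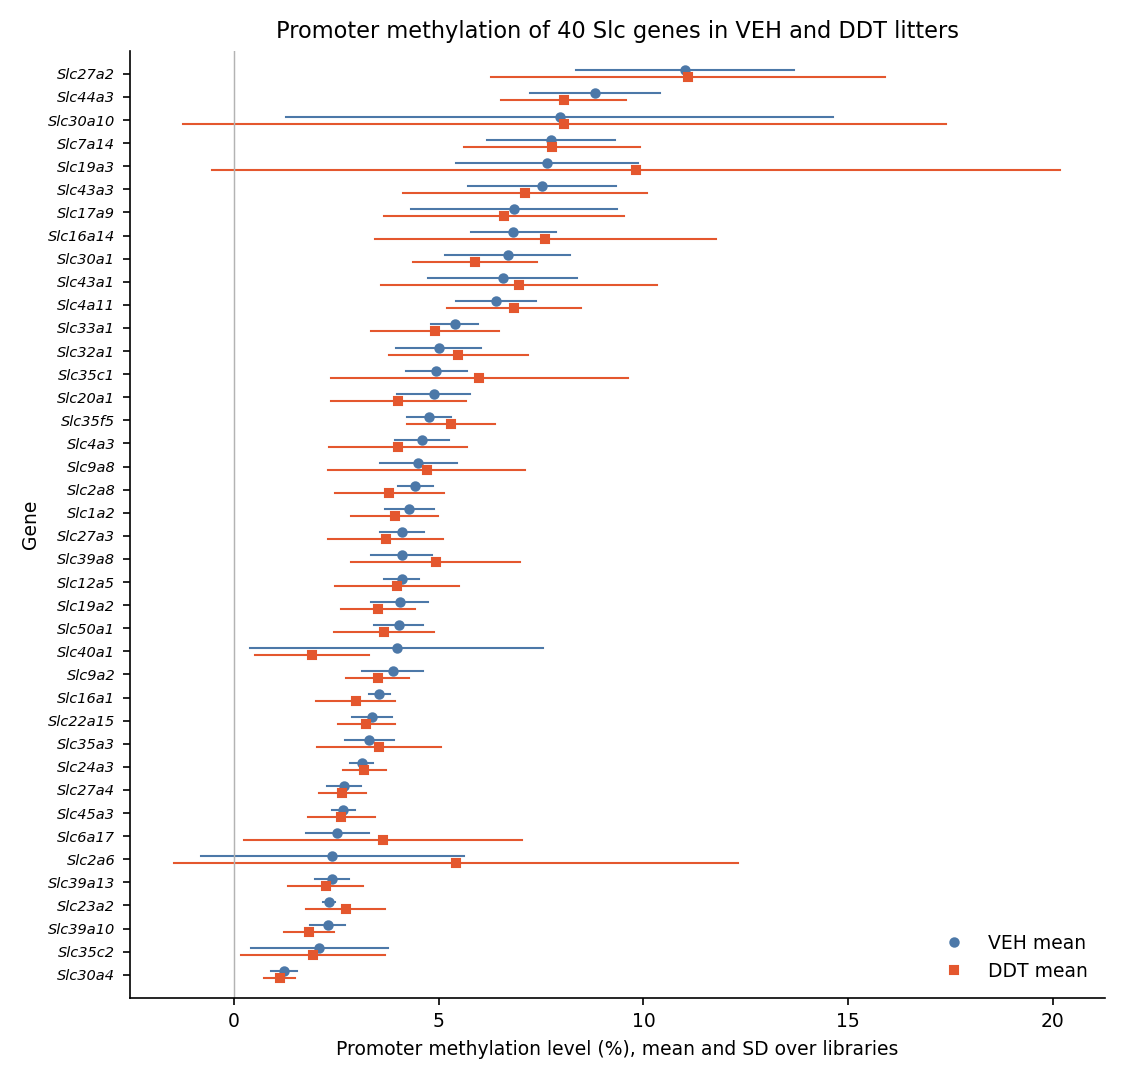
Promoter methylation level (horizontal axis, %) of the 40 Slc genes with a tested promoter, ordered by the VEH mean, with means as points and the SD over libraries as lines for VEH and DDT. VEH means run from 1.22% at Slc30a4 to 11.02% at Slc27a2.

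Promoters were low in each of the 7 transport classes that had a tested one. Over the 40 genes the VEH median was 4.19%, 39 lay under 10% and none reached 20%, against 7.21% of the 1650 promoters of all genes. At 50% or more there were 71 of the 1650 (4.30%), and 0 of the 10 promoters of the other membrane transport genes, whose highest was 46.2%. Among the sugar transporters, the promoters of the hexose carriers Slc2a6 and Slc2a8 had 2.40% ± 3.22 (SD, n = 11) and 4.43% ± 0.433 (SD, n = 12). Slc45a3 had 2.67% ± 0.280 and Slc50a1, the sugar efflux carrier SWEET1, 4.03% ± 0.601 (SD, n = 12 each). DDT means of these 4 genes ran from 2.62% to 5.42%. Within Slc2a8 the 7 promoter fragments ran from 2.33% to 19.2%. Slc2a10 had no tested promoter, and its 3 body fragments had 72.1% to 95.7%. None of the 37 sugar transporter fragments had an unadjusted p under 0.05 (background 4.18%).

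Among the transporters of amino acids and transmitters, promoter levels ran from 2.52% to 7.74% in VEH. Slc6a17, a vesicular amino acid transporter, had 2.52% ± 0.774, Slc1a2, the glial glutamate transporter GLT-1, 4.28% ± 0.593, and Slc32a1, the vesicular GABA transporter, 5.001% ± 1.04 (SD, n = 12 each). The highest of the class was Slc7a14 with 7.74% ± 1.57 in VEH and 7.76% ± 2.15 in DDT. Slc1a2 fragments ran from 1.70% to 16.6% within its promoter. A fragment across an exon boundary at chr2:102659259-102659476, had a higher mean in DDT by 3.97 points (unadjusted p 0.0391), and another at chr2:102658774-102658813 had a difference of -0.705 points (unadjusted p 0.0413). The class had 5 of 53 fragments (9.43%, background 4.18%) at an unadjusted p under 0.05, 3 of them higher in DDT.

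The carriers of organic solutes and fatty acids include several that feed brown fat. Slc16a1, the monocarboxylate transporter MCT1 for lactate and ketone bodies, had the most densely covered promoter, with 14 tested fragments from 2.36% to 17.6% and a summed level of 3.55% ± 0.263 in VEH and 2.97% ± 0.967 in DDT (SD, n = 12 each, unadjusted p 0.0574). Its upstream fragments ran from 14.4% to 96.6%. The fatty acid transport protein genes had promoter levels of 2.68% ± 0.421 at Slc27a4, 4.10% ± 0.543 at Slc27a3 and 11.02% ± 2.66 at Slc27a2 (SD, n = 12 each), where the value rests on 1 fragment with 1 CpG, 34 bp long and 955 bp before the start. In DDT they were 2.65%, 3.70% and 11.1%. The Slc27a2 fragment 673 bp after that start had 0.994%, and the gene's 7 body fragments ran up to 46.6%. Slc33a1, the acetyl-CoA transporter of the endoplasmic reticulum, held the highest promoter fragment of the family, at 31.4% beside touching neighbours at 0.415% and 8.98%. Its 5 upstream fragments, from 0.278% to 9.46%, lay at the start of another gene, Gmps. None of the 70 fragments of the class had an unadjusted p under 0.05 (background 4.18%).

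For vitamins and nucleosides, the promoter of Slc23a2 had 2.33% ± 0.148, that of the thiamine transporter Slc19a2 4.05% ± 0.699 and that of the thiamine transporter Slc19a3 7.64% ± 2.22 in VEH (SD, n = 12 each), and the DDT means were 2.72%, 3.51% and 9.82%. A Slc19a2 promoter fragment at chr1:164248571-164248640 had 8.65% in VEH and 4.17% in DDT (unadjusted p 0.0368), with a lowest count of 15 calls. It was the 1 fragment of 29 (3.45%, background 4.18%) in the class at that p. Slc52a3 had 3 upstream fragments from 7.62% to 40.4% and a body fragment at 91.6%. At the most methylated of the upstream ones DDT replicates 4 and 12 had 1.27% and 1.72%, and VEH 19.5% to 58.3%.

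Among the carriers of inorganic ions, VEH promoter levels ran from 3.11% ± 0.278 at Slc24a3, a sodium calcium exchanger that also moves potassium, to 6.40% ± 0.980 at Slc4a11 (SD, n = 12 each). Slc20a1 had 4.87% ± 0.889 in VEH and 4.01% ± 1.65 in DDT. Slc12a5 had 20 tested fragments, the most of the family. Its 7 promoter fragments ran from 1.95% to 11.5%, a fragment 25376 bp inside the gene had 90.4%, and the 5 fragments from 29215 to 29824 bp inside it, among them the one with the smallest p, were again between 4.83% and 17.8%. The class had 4 of 85 fragments (4.71%, background 4.18%) at an unadjusted p under 0.05, 0 of them higher in DDT (background 1.25%).

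The metal transporters held both the lowest and some of the most spread genes. The promoter of the zinc transporter Slc30a4 had 1.22% ± 0.313 in VEH and 1.12% ± 0.380 in DDT, and that of Slc30a10, a manganese exporter, 7.95% ± 6.67 and 8.07% ± 9.32 (SD, n = 12 each). The zinc importers Slc39a10 and Slc39a13 had 2.28% ± 0.433 and 2.39% ± 0.412, the zinc exporter Slc30a1 6.68% ± 1.53 and the iron exporter Slc40a1, ferroportin, 3.97% ± 3.58 in VEH. In DDT they were 1.84%, 2.24%, 5.88% and 1.89%, with no unadjusted p under 0.05. In the Slc30a1 promoter a fragment with a single CpG, at chr1:191907034-191907093, had 22.01% between touching neighbours at 1.45% and 5.10%. It had 17.5% in DDT (unadjusted p 0.0399). The class had 5 of 67 fragments (7.46%, background 4.18%) at that p, 1 of them higher in DDT.

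The nucleotide sugar transporters, which load the Golgi with substrates for glycosylation, had promoter levels from 2.08% ± 1.67 at Slc35c2 to 4.94% ± 0.737 at Slc35c1, the GDP-fucose transporter (SD, n = 12 each). Upstream of Slc35c1, a fragment at chr2:92667799-92667852 had VEH levels from 10.8% to 71.4% with a median of 36.2% and DDT levels from 11.1% to 52.2% with a median of 19.2%. Its difference of -13.6 points (unadjusted p 0.0343) was the largest among the 18, on a median of 36 calls a library. The class had 3 of 36 fragments (8.33%, background 4.18%) at that p. None of the class shares was tested against the background. The mitochondrial carriers were represented by Slc25a44, which imports branched-chain amino acids into the mitochondria of brown fat. It had no tested promoter, and its 3 touching exon fragments had 94.0% ± 2.43, 94.5% ± 2.33 and 73.3% ± 11.1 in VEH and 92.9%, 96.3% and 81.2% in DDT with a smallest unadjusted p of 0.0635.

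At some genes the levels of the assigned fragments spanned nearly the whole scale. At others with several tested fragments the range was narrow, such as 5.32 percentage points at Slc27a4 and 8.88 at Slc27a3. These ranges were not computed over all genes. The widest ranges between tested fragments were 97.8 percentage points at Slc30a4, 96.8 at Slc27a2, 96.7 at Slc20a1, 96.5 at Slc39a10 and 96.0 at Slc45a3. Slc30a4 ran from 0.863% in its promoter to 98.7% at a fragment 794085 bp upstream. Slc39a10, with 18 tested fragments, ran from 0.897% in its promoter to 97.4% upstream, and its body fragments reached 19.7%. At Slc27a2 the highest fragment, at 97.8%, was also upstream, and the body fragments reached 46.6%. In Slc45a3, which had 7 promoter fragments from 0.543% to 19.2%, 3 touching body fragments of 41, 42 and 114 bp had 8.67%, 55.3% and 7.94%, each with 1 CpG.

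Of 10 marker genes of brown adipocytes, Ucp1 among them, 1 had fragments in the table, Fabp4. Its 2 tested fragments, 1 of them in the gene or its promoter, had 10.04% and 47.99% in VEH. The labelled tissue could not be checked here beyond that gene. Of 10 markers of other cells that BAT dissection can carry, 5 had tested fragments, namely Ptprc, Myog, Ttn, Ermn and Snap25. Of their 24 tested fragments 13 belonged to Ttn. All fragments of Ttn and Myog lay in the gene or its promoter, but only 1 of 2 at Ptprc, 3 of 6 at Snap25 and 0 of 1 at Ermn. The others carry the marker's name by the authors' assignment. Of the 24, 4 had an unadjusted p under 0.05 (background 4.18%), with p of 0.0290 at Ttn, 0.0357 at Ptprc, 0.0372 at Snap25 and 0.0449 at Myog. The part of cell composition in the Slc values was not tested.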

How the data were processed

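Reduced representation bisulfite counts of BAT from 12 DDT and 12 VEH litters at PND 12 were used. Before deposit the authors trimmed reads with Scythe and Sickle, aligned them to GRCm38 with Bismark 0.15.0 and Bowtie 2, and summed methylated and not methylated CpG calls per MspI fragment. The deposited values are these counts, without normalization, with the authors' gene, region and CpG island annotation. Whether bases filled in at MspI ends were removed is not given in the sources used here. The table held 65535 fragments of 30 to 220 bp, all beginning at an MspI site of GRCm38, and libraries held 8371958 to 14124652 calls.

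The level was the percentage of methylated calls, used with at least 10 calls, and tested with at least 8 libraries per group by the ANOVA F test that the study's statistics section names, with Benjamini-Hochberg adjustment over 20225 fragments or 5153 zones and a threshold of 0.05. The differential methylation package of the study was not run. Starts came from GENCODE M21 basic annotation, and promoters ran from 1000 bp before to 500 bp after any start. The permutation tests were two-sided with 100000 resamples. Members, lists, classes and the rule for named genes were chosen with earlier results of these data known. Named were the 10 Slc fragments with the smallest p, the genes with the highest and lowest promoter of each class, any promoter at 20% or more in VEH, the 5 genes with the widest range, and members tied to brown fat fuel, vitamins and metals. Other fragments at an unadjusted p under 0.05, the other promoters given, touching fragments and single-library values were chosen after their values were seen. The code was tested on simulated data. No pair of libraries agreed within sampling noise, the lowest mean chi-square per fragment being 1.54.

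Alternatives were a quasi-binomial regression, limma on log2((methylated + 1) / (not methylated + 1)), minimums of 5 and 20 calls, fragments with a level in all 24 libraries, total calls as a covariate, a replicate block, promoter windows of 500 and 2000 bp before the start and each library left out. Leaving out DDT replicates 4 and 12 together was added after seeing the data. Computation used R 4.3.3 (limma 3.58.1) and Python 3.11.15 (SciPy 1.17.1, pandas 2.3.3, NumPy 2.4.6), and matplotlib 3.10.9 drew the figures.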

Additional observations from a re-analysis of the deposited data

How the results depend on the processing

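No Slc fragment passed an adjusted p of 0.05 under any of the 32 alternatives, limma and the quasi-binomial regression included, where the smallest adjusted p was 0.838 and 0.203, and no zone did under any of 30. The reported 18 fragments with an unadjusted p under 0.05 became 35 with the quasi-binomial regression (9.21%, background 7.72%), 11 with limma (2.89%, background 3.51%) and 11 with levels in all 24 libraries (5.70%, background 4.24%), and those higher in DDT, 5 as reported, became 8, 3 and 3. The fewer fragments tested, 193, bear on the last of these, and the cause of the others was not tested. For the counts higher in DDT, here and below, the share over all fragments was not computed under the alternatives. They therefore cannot be set against the whole table. Leaving out 1 library gave 13 to 30 fragments, the most without DDT replicate 11 (8.04%, background 5.38%) and the fewest without DDT replicate 4 (3.46%, background 4.24%), and 2 to 10 higher in DDT, with 2 without DDT replicate 3, 3 without VEH replicate 3 or 11, 8 without DDT replicate 9 or 11 and 10 without DDT replicate 7. It gave 3 to 11 zones in place of 5, with 3 without VEH replicate 10, 8 without VEH replicate 9 or DDT replicate 9, 9 without DDT replicate 10 and 11 without DDT replicate 11. The median difference ran from -0.328 to -0.146 points over the fits with 1 library left out. With the replicate block there were 17 fragments (4.47%, background 4.13%, 0 adjusted) and 5 zones. The share over all zones was not computed under the alternatives, so these zone counts cannot be set against the whole table. Same-numbered libraries showed no clear likeness. Their correlations ran from -0.180 to 0.199, 3 of 12 over 0.1, and 0 libraries correlated best with their own number. Weak correlations cannot show whether same-numbered libraries shared a processing step. The 10 named differences kept their sign under every alternative that tested them. These were 31 of the 32 at Slc7a11, Slc39a12, Slc39a8 and Slc7a14, and all 32 at the other genes. The fragments had been picked by their p in the same libraries, so a kept sign is no independent support. Their unadjusted p was 0.05 or more under at least 1 alternative at Slc7a11, Slc39a12, Slc35f5, Slc9a2, Slc7a14, Slc4a11 and Slc39a10. No promoter reached 20% under another window, call minimum or the mean of fragment levels, the highest being 16.9%.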

Other observations

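The spread between litters was wider in DDT than in VEH at the Slc genes, as it was in the whole table. The SD over libraries was larger in DDT at 37 of the 40 Slc promoters, with a median of 1.52 percentage points against 0.741 in VEH. Without DDT replicates 4 and 12 it was larger at 27 of 40, with a median of 0.949 points. The same share was not computed over the promoters of all genes, so the promoter counts have no background here. Over the 380 Slc fragments the DDT SD was larger at 300 (78.9%), and at 79.2% of all tested fragments. Without both libraries these shares were 56.6% and 60.0%, and no test was run on them.

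Differences of over 5 percentage points between the group means were found at 35 Slc fragments, 13 of them lower in DDT, and 18 of the 35 stayed over 5 points without DDT replicates 4 and 12. This count was not made over all tested fragments, so it cannot be read as particular to the Slc genes. The median absolute difference was 1.11 points over the Slc fragments and 0.929 over all tested fragments. Among the 15 largest differences, DDT replicate 4 or 12 was the library farthest from the median in 7. Other single libraries stood out too. At a Slc30a10 body fragment DDT replicate 3 had 90.2% in 61 calls, and the VEH libraries 4.37% to 9.82%. At a Slc33a1 promoter fragment DDT replicate 5 had 64.3% in 14 calls, and the VEH libraries 0% to 3.23%. At a promoter fragment of Slc27a3 VEH replicate 7 had 83.3% in 12 calls and DDT replicate 10 had 75% in 28, where the VEH median was 0%.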
